A study of Mus musculus with 12 samples.

Results

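The genes of the translation initiation and elongation factors were followed in mouse T cells of 2 genotypes, before and after transplant into an allogeneic host. They were chosen by name, as the protein coding genes whose symbols begin with Eif or Eef and a number, with the eIF2 kinases (symbols beginning with Eif2ak) set aside. This rule gave 64 of the 35907 genes with a transcript in the data, and no measured value entered it. By role, 7 genes encode scanning and start codon factors, 6 the eIF2 subunits and the separate factors eIF2A and eIF2D, 5 the exchange factor eIF2B and 14 the eIF3 complex. Another 5 encode the eIF4A helicases and their cofactors, 7 the cap-binding factors of the eIF4E and eIF4G families, 4 the inhibitors that bind eIF4E, and 3 eIF5A, its paralog and eIF6. The last 13 are 7 elongation factors and 6 enzymes that modify elongation factors.

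Initiation begins when eIF2, bound to GTP, brings the initiator tRNA to the small ribosomal subunit, which carries eIF1, eIF1A, eIF3 and eIF5. The eIF4F complex, made of the cap-binding protein eIF4E, the scaffold eIF4G and the helicase eIF4A, loads this subunit onto the capped end of an mRNA, and the subunit then scans to the start codon, where eIF5B joins the large subunit. Elongation is carried by eEF1A, which delivers aminoacyl-tRNA, and by eEF2, which moves the ribosome along. Resting T cells are known to translate little and to raise protein synthesis steeply when they are activated. Much of that control acts on proteins and on the choice of mRNAs, which RNA levels of the factors do not measure.

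The samples were 12 libraries, 3 in each of 4 groups. WT donors were C57Bl/6 mice, and TCF-1 cKO donors carried floxed Tcf7 alleles and a Cre recombinase driven by the Cd4 promoter, which acts in T cells from the double-positive stage of the thymus onward, so that both CD4 and CD8 cells lose TCF-1. Mice were 8 to 12 weeks old and matched for sex. Pre-Tx libraries came from donor splenic T cells, and Post-Tx libraries from donor T cells sorted back at day 7 from the spleens of lethally irradiated female BALB/c recipients, so all Post-Tx cells of both genotypes had been in an irradiated allogeneic host. In the transplant model of the study, recipients were also given bone marrow of WT mice from which T cells had been removed. The samples are titled CD4 T cells, whereas the design text of the series names CD8 cells for Pre-Tx and both CD4 and CD8 cells for Post-Tx. The ratio of Cd4 to Cd8a counts was 0.528 to 0.907 in WT Pre-Tx and 0.917 to 1.06 in TCF-1 cKO Pre-Tx. After transplant it was 157 to 1117 in WT and 53.0 to 83.6 in TCF-1 cKO. Cd4 RNA thus far exceeded Cd8a RNA in every Post-Tx library, whereas the Pre-Tx libraries held both at comparable levels. By this ratio the Pre-Tx libraries did not hold CD4 T cells alone. The part of this difference in the results below was not tested. Each library is titled a biological replicate.

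Depth ran from 17103415 to 49486745 estimated counts per library, of which the 64 genes took 270309 to 904400. CPM (counts scaled to the library total) of Tcf7 lay between 109 and 198 in every library, and its level was not shown to differ between genotypes before transplant (log2 fold change -0.04, SE 0.23, adjusted p = 0.924) or after it (-0.66, SE 0.22, adjusted p = 0.0669). These values sum whole transcripts, so loss of the floxed exons alone would not show in them, and the genotypes are used as labelled. The Pre-Tx libraries held much RNA of other cells. Before transplant the B cell gene Cd79a had 8.06 to 9.91 times the CPM of the T cell gene Cd3e in WT and 14.5 to 20.5 times in TCF-1 cKO, and after transplant at most 0.00770 times. Summed CPM of 10 T cell markers were 2708 to 3247 (WT Pre-Tx), 1513 to 1706 (TCF-1 cKO Pre-Tx), 6838 to 8083 (WT Post-Tx) and 4949 to 5384 (TCF-1 cKO Post-Tx), and 10 B cell markers summed to 7724 to 8860, 9234 to 9927, 42.0 to 83.5 and 54.0 to 109 in the same order. The 8 erythroid markers summed to 10939 to 26253, 4536 to 15183, 711 to 1483 and 1660 to 5781, and no marker of these 3 lists was at 0 in every library of a group. Again in that order, the 8 myeloid markers summed to 2642 to 3817, 2826 to 2998, 602 to 680.4 and 912 to 1277, and the 6 NK cell markers to 65.6 to 125, 162 to 266, 28.4 to 106 and 26.4 to 67.3, with Klra8 at 0 in all WT Post-Tx libraries. The 8 proliferation markers summed to 406 to 452, 388 to 626, 1717 to 2204 and 2213 to 2332. The genotypes did not overlap for T and B cell and NK cell markers before transplant, nor for T cell, erythroid, myeloid and proliferation markers after it. Olfactory receptor genes, which T cells are not known to use, summed to 2472 to 6870, 858 to 1511, 1065 to 3070 and 4383 to 11767 CPM. For these genes too the genotypes were apart at both stages, with TCF-1 cKO lower before transplant and higher after it. That order is the reverse of the order of the members' share of TPM given below. In bulk RNA such as this, fewer cells of a type and less RNA per cell cannot be told apart. The part of these other cells, and of the olfactory receptor signal, in the results below was not tested.

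The factor genes spanned 4 orders of magnitude in level. Levels of different genes are compared here in TPM, which are scaled to the library total and to transcript length. Over the 12 libraries 3 genes had a mean of at least 1000 TPM, 20 lay between 100 and 1000, 31 between 10 and 100, 6 between 1 and 10 and 4 under 1. The highest means were those of Eef1a1 at 3517 TPM, Eif5a at 1039.9, Eif1 at 1035, Eef2 at 908 and Eef1b2 at 535. Eef1a1, the tRNA delivery factor, alone made up 21.4% of the TPM of all 64 genes (WT Pre-Tx), 34.2% (TCF-1 cKO Pre-Tx), 28.8% (WT Post-Tx) and 25.9% (TCF-1 cKO Post-Tx). Genes of restricted expression stood at the other end, with means of 0.380 TPM for Eef1a2, 0.644 for Eif5a2, 0.843 for Eif4ebp3 and 0.901 for the Y-linked Eif2s3y. Together the 64 genes took 0.914% to 1.18% of all TPM in WT Pre-Tx and 1.28% to 1.42% in TCF-1 cKO Pre-Tx. After transplant the order of the genotypes was the other way round, with 1.37% to 1.48% in WT and 1.05% to 1.25% in TCF-1 cKO, and the groups overlapped at neither stage.

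**Figure D1:**
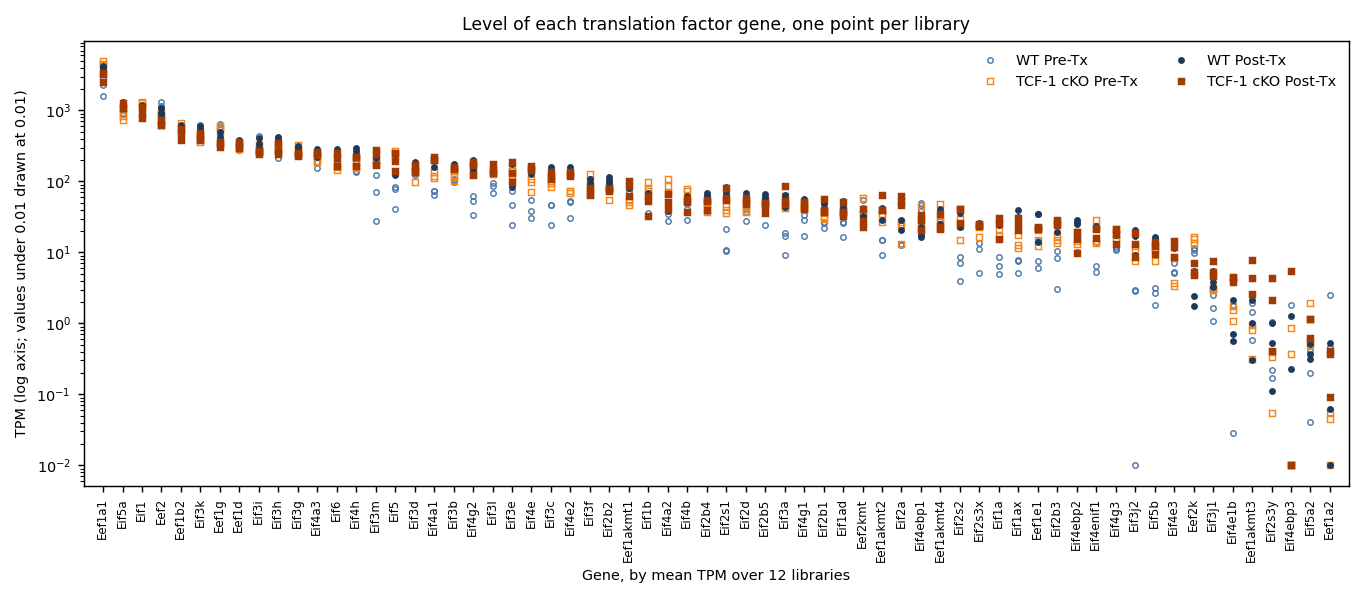
Level of each of the 64 translation factor genes in TPM (log axis, values under 0.01 drawn at 0.01) in each of the 12 libraries, genes ordered by their mean, with 1 marker per library and 1 shape and colour per group. Eef1a1 stands highest with a mean of 3517 TPM, and 4 genes have means under 1 TPM.

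Before transplant, more factor genes were higher in TCF-1 cKO than in WT. Of 60 genes tested with edgeR's quasi-likelihood test (adjusted p over all genes), 14 rose (23.3%), among 17021 genes of which 8.52% rose, and 3 fell (5%), with 5.65% of all genes lower. The median log2 fold change of the 60 was 0.37, beside -0.11 for all genes tested. The genes that rose were Eif5, Eif4g2, Eif3a, Eif2s1, Eif5b, Eif3c, Eif1a, Eif3e, Eef1a1, Eif4a2, Eif2s2, Eif4enif1, Eif1ax and Eif4e, 12 of them by a log2 fold change over 1, and Eef2, Eif3k and Eef1akmt1 fell. The split depended on scaling and on low genes. Under upper-quartile scaling the median of all genes tested was -0.47, and 8 members rose and 9 fell. The share of all genes called under that scaling is not given here. The members' median then lay 0.48 above that of all genes, beside 0.48 in the fit above. Among genes with a mean of at least 10 CPM, 11 of 58 rose and 9 fell, while 10.8% of all such genes rose and 12.2% fell. Single libraries mattered too. Without WT replicate 1 no member passed as higher, while 20 were higher at an unadjusted p under 0.05, beside 25 with all 6 libraries. As higher, 7 passed without WT replicate 3, 4 without TCF-1 cKO replicate 1 and 8 without TCF-1 cKO replicate 2. None of the 3 lower calls held when any 1 library was left out. Only Eef1a2, removed by the filter on low counts with all 6 libraries, passed as lower without WT replicate 2. Whether calls were lost over all genes alike in these fits was not tested.

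After transplant few factor genes passed the test, and those that did were lower in TCF-1 cKO. Of 63 tested, Eef2, Eif2b2, Eif3f and Eif2b5 fell (6.35%, against 3.13% of 19287 genes), and 0 rose, where 3.52% of all genes rose. At an unadjusted p under 0.05, 26 members were lower and 2 higher. DESeq2's Wald test called 17 lower and 1 higher, and limma voom 15 and 1. Shares of all genes at an unadjusted p or with these tools are not given here, so these counts alone do not set the members apart from other genes. The median log2 fold change of the 63 was -0.45, beside 0.09 for all genes, and 54 of the 63 values were negative. With upper-quartile normalization, where the median of all genes was 0.37, and among genes with a mean of at least 10 CPM, 0 were lower. Shares of all genes called in these settings, or without single libraries, are not given here. The count of lower genes was 11 without WT replicate 2, which also gave 1 higher, and 0 without WT replicate 1, WT replicate 3, TCF-1 cKO replicate 2 or TCF-1 cKO replicate 3, with 16 to 23 members then lower at an unadjusted p under 0.05.

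With transplant, the factor genes that passed the test were mostly higher in WT and mostly lower in TCF-1 cKO. In WT, 22 of 64 genes rose from Pre-Tx to Post-Tx (34.4%, against 11.6% of 21434 genes) and 4 fell (6.25%, against 10.4%), with a median log2 fold change of 0.38 beside -0.41 for all genes. In TCF-1 cKO, only Eef1akmt3 rose, where 14.2% of all genes did, and 16 fell (25%, against 12.5%), with a median of -0.41 beside 0.36. The interaction, which is the transplant change in TCF-1 cKO minus that in WT, passed as negative for 25 genes (39.1%, against 11.5% of all genes) and as positive for Eef1akmt3 alone, where it did so for 17.1% of all genes. Its median was -0.77 for the 64 genes and 0.37 for all genes. Pre-Tx and Post-Tx libraries differ in host, day, cell state, ratio of Cd4 to Cd8a and content of other cells at once, and these cannot be told apart. The interaction shares its libraries with the genotype comparisons, so it is not separate evidence of them.

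The transplant comparisons also moved with the settings, whose counts stand here without the share of all genes called. Upper-quartile normalization gave 18 higher and 9 lower in WT, 4 and 8 in TCF-1 cKO and 4 and 8 for the interaction, and it moved the median of all genes to -0.70, 0.73 and 1.05. Among genes with a mean of at least 10 CPM the counts were 20 and 11, 3 and 10, and 2 and 8. At that level the members' median lay 0.16 above that of all genes in WT, 0.04 below it in TCF-1 cKO and 0.29 below it for the interaction, where the distances over all genes tested were 0.79 above, 0.76 below and 1.14 below. The limma trend fit on log2(TPM + 1) turned the direction in TCF-1 cKO. There 13 members were higher and 8 lower at an unadjusted p under 0.05, and the members' median was 0.16, beside 0.51 for all genes. In WT, 14 members rose without WT Post-Tx replicate 3 and 2 fell without WT Pre-Tx replicate 3. In TCF-1 cKO, 9 fell without TCF-1 cKO Pre-Tx replicate 3 and 10 without TCF-1 cKO Post-Tx replicate 2. Without TCF-1 cKO Post-Tx replicate 2 the interaction was negative for 13 members, and without WT Post-Tx replicate 3 for 15. WT Pre-Tx replicate 3 had the lowest level of the 12 libraries for 23 of the 64 genes, TCF-1 cKO Post-Tx replicate 2 for 17, and WT Post-Tx replicate 3 had the highest for 23.

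**Figure D2:**
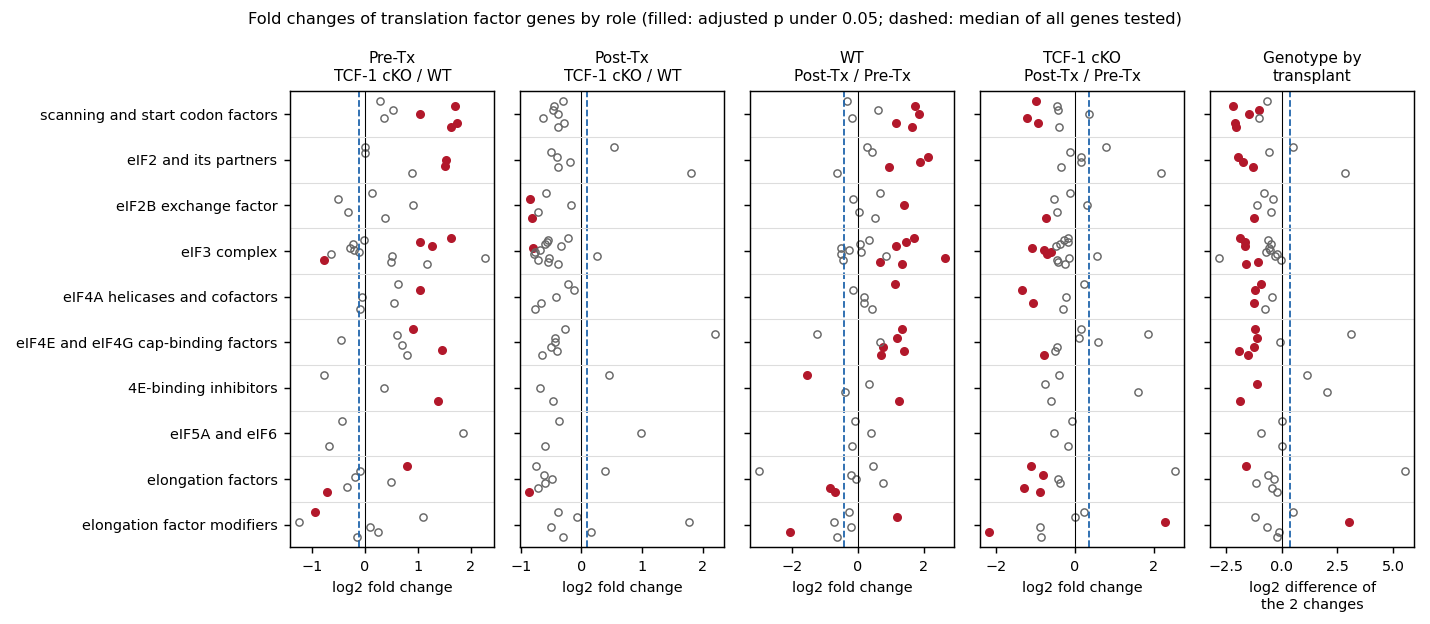
Fold changes of the translation factor genes, 1 point per gene, arranged by role, for the genotype comparisons before and after transplant, the transplant change in each genotype, and the interaction of both. The axes are log2 fold changes (for the interaction, the difference of 2 log2 changes), filled points have an adjusted p under 0.05, and the dashed line is the median of all genes tested. Filled points lie mostly to the right before transplant (14 higher, 3 lower) and in WT with transplant (22 and 4), and mostly to the left in the other panels.

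**Figure D3:**
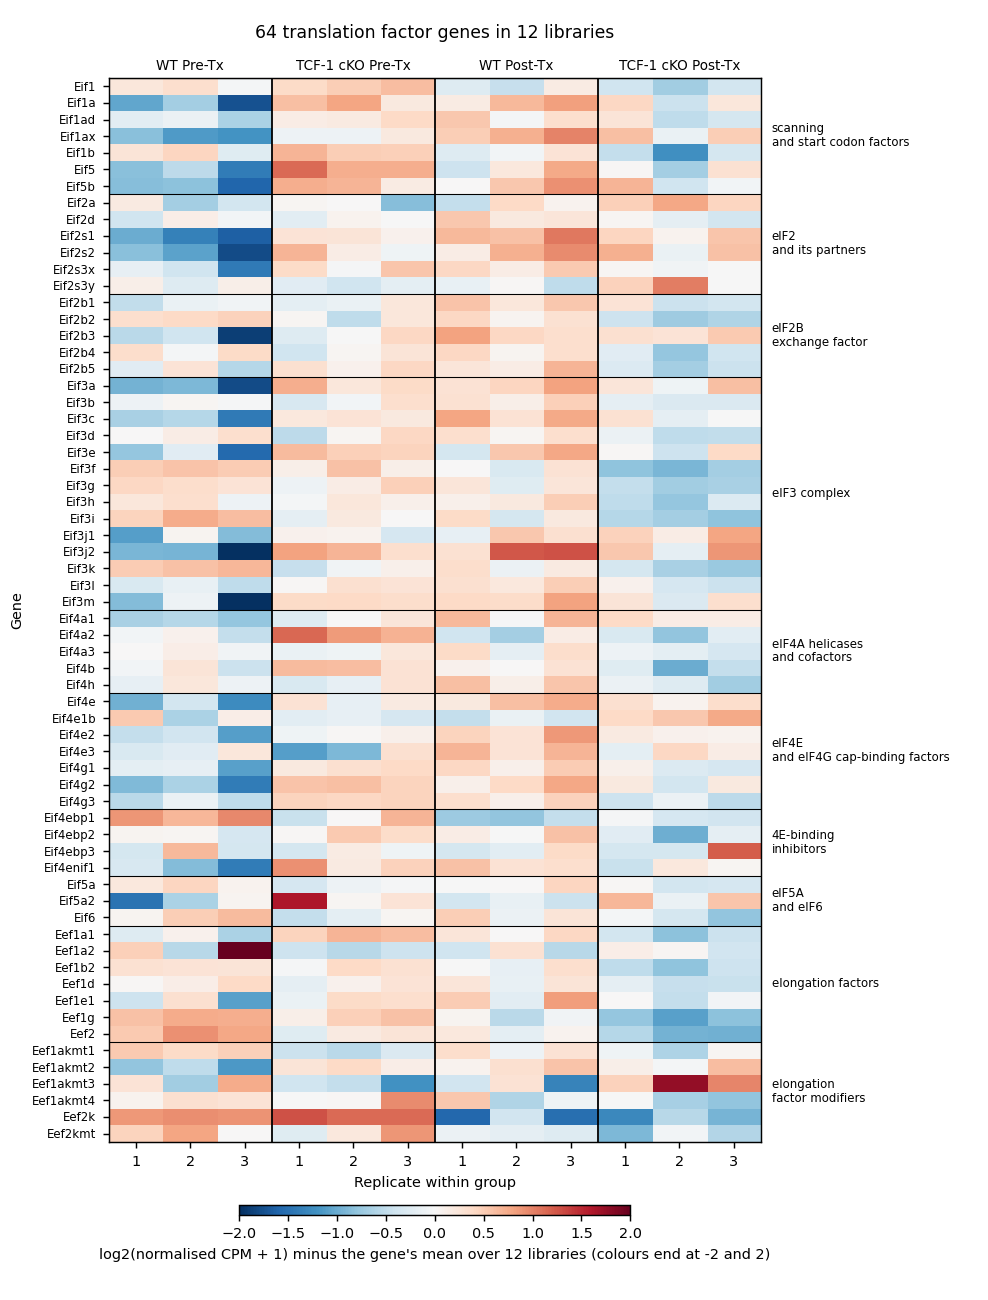
Level of each of the 64 genes in each of the 12 libraries, as log2(normalised CPM + 1) minus the gene's mean over the libraries, with genes in rows grouped by role and libraries in columns grouped by genotype and stage. WT Pre-Tx replicate 3 is the lowest library for 23 genes and WT Post-Tx replicate 3 the highest for 23.

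Values of single genes below are normalised CPM per library, given for replicates 1, 2 and 3 of a group in that order. Bracketed values are the log2 fold change, its standard error, the adjusted p of the edgeR quasi-likelihood test, and the number of fits leaving out 1 library in which the call held, of how many. No call of a named gene changed sign in any alternative.

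Among the scanning and start codon factors, Eif5, Eif5b, Eif1a and Eif1ax rose before transplant and in WT with transplant. Eif5, the factor that makes eIF2 hydrolyse its GTP at the start codon, stood at 86.6, 108 and 58.4 in WT Pre-Tx against 342, 257 and 257 in TCF-1 cKO Pre-Tx. After transplant its values were 116, 180.2 and 263 in WT Post-Tx against 158, 97.1 and 193 in TCF-1 cKO Post-Tx. All TCF-1 cKO libraries lay above all WT libraries before transplant, and after it the genotypes overlapped. Eif5 was higher in TCF-1 cKO Pre-Tx (1.74, SE 0.26, adjusted p = 0.00589, 5 of 6), rose with transplant in WT (1.15, SE 0.32, adjusted p = 0.0156, 11 of 12) and fell with it in TCF-1 cKO (-0.94, SE 0.32, adjusted p = 0.0379, 5 of 12). Its interaction was negative (-2.08, SE 0.45, adjusted p = 0.00553, 12 of 12).

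Eif5b, the GTPase that joins the ribosomal subunits, had 21.2, 21.7 and 12.3 in WT Pre-Tx against 65.1, 62.9 and 43.6 in TCF-1 cKO Pre-Tx. Post-Tx values of Eif5b were 39.3, 57.3 and 74.7 in WT Post-Tx against 62.8, 29.4 and 37.4 in TCF-1 cKO Post-Tx. WT Pre-Tx stood apart below the other 3 groups, which overlapped among themselves. Eif5b was higher in TCF-1 cKO before transplant (1.62, SE 0.34, adjusted p = 0.0155, 4 of 6), rose in WT with transplant (1.63, SE 0.35, adjusted p = 0.00301, 12 of 12) and had a negative interaction (-2.04, SE 0.49, adjusted p = 0.00921, 12 of 12). The autosomal Eif1a and the X-linked Eif1ax encode near-identical forms of eIF1A, the partner of eIF1 in scanning, so reads may be split between them uncertainly. Eif1a stood at 15.1, 19.7 and 8.86 in WT Pre-Tx against 49.4, 55.8 and 36.9 in TCF-1 cKO Pre-Tx. Its later values were 36.2, 50.95 and 57.3 in WT Post-Tx against 43.1, 23.6 and 37.6 in TCF-1 cKO Post-Tx. Eif1ax stood at 25.6, 20.7 and 19.6 in WT Pre-Tx against 43.3, 43.1 and 53.4 in TCF-1 cKO Pre-Tx. For Eif1ax the later values were 65.6, 76.9 and 93.5 in WT Post-Tx against 70.7, 42.4 and 65.7 in TCF-1 cKO Post-Tx. Both genes were below all other libraries in WT Pre-Tx, with replicate 3 lowest. Eif1a passed before transplant (1.69, SE 0.37, adjusted p = 0.0177, 3 of 6), in WT with transplant (1.72, SE 0.35, adjusted p = 0.00202, 12 of 12) and for the interaction (-2.17, SE 0.49, adjusted p = 0.00683, 12 of 12). Eif1ax passed in the same 3 comparisons (1.04, SE 0.30, adjusted p = 0.0401, 0 of 6 before transplant, 1.84, SE 0.28, adjusted p = 0.000139, 12 of 12 in WT, and -1.48, SE 0.38, adjusted p = 0.0125, 12 of 12 for the interaction).

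Eif1ad, which encodes a protein with a domain like that of eIF1A, had 67.8, 73.00 and 50.2 in WT Pre-Tx against 87.3, 89.8 and 105 in TCF-1 cKO Pre-Tx. After transplant Eif1ad read 115, 77.1 and 99.6 in WT Post-Tx against 94.8, 54.9 and 61.4 in TCF-1 cKO Post-Tx. It was lower in WT Pre-Tx than in the other 2 groups compared with it, and of the 5 comparisons only the interaction passed (-1.03, SE 0.37, adjusted p = 0.0477, 3 of 12). Eif1, the gatekeeper of start codon choice and among the most abundant of all members in TPM, fell with transplant in TCF-1 cKO (-0.98, SE 0.21, adjusted p = 0.00287), and so did its paralog Eif1b, whose group ranges do not overlap there.

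eIF2 carries the initiator tRNA, and all 3 of its subunit genes outside the Y chromosome rose in WT with transplant. Eif2s1, the alpha subunit that the eIF2 kinases phosphorylate, had 33.2, 25.9 and 20.99 in WT Pre-Tx against 81.8, 80.4 and 71.8 in TCF-1 cKO Pre-Tx. In the Post-Tx libraries Eif2s1 had 106, 101 and 141 in WT Post-Tx against 90.8, 70.5 and 99.6 in TCF-1 cKO Post-Tx. Every TCF-1 cKO library was above every WT library before transplant and below every WT library after it. Eif2s1 was higher in TCF-1 cKO before transplant (1.52, SE 0.27, adjusted p = 0.0105, 5 of 6), and the later difference did not pass (-0.40, SE 0.24, adjusted p = 0.239). Its rise in WT with transplant was the one with the smallest adjusted p among the members (2.12, SE 0.26, adjusted p = 1.47e-05, 12 of 12), and its interaction was negative (-1.96, SE 0.35, adjusted p = 0.00272, 12 of 12).

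The beta subunit gene Eif2s2 read 24.4, 20.5 and 12.1 in WT Pre-Tx against 71.5, 48.96 and 41.7 in TCF-1 cKO Pre-Tx. After transplant Eif2s2 read 49.03, 73.4 and 86.00 in WT Post-Tx against 72.7, 40.3 and 67.3 in TCF-1 cKO Post-Tx. WT Pre-Tx was again the low group, and the genotypes overlapped after transplant. Eif2s2 passed before transplant (1.50, SE 0.36, adjusted p = 0.0231, 2 of 6), in WT with transplant (1.87, SE 0.35, adjusted p = 0.000858, 12 of 12) and for the interaction (-1.72, SE 0.48, adjusted p = 0.0165, 11 of 12). The gamma subunit has an X-linked and a Y-linked gene. Eif2s3x had 55.9, 47.7 and 22.9 in WT Pre-Tx against 82.5, 62.1 and 93.00 in TCF-1 cKO Pre-Tx, and then 84.6, 69.9 and 91.2 in WT Post-Tx against 64.95, 60.2 and 62.5 in TCF-1 cKO Post-Tx. The TCF-1 cKO libraries were all higher before transplant and all lower after it, and Eif2s3x passed in WT with transplant (0.96, SE 0.30, adjusted p = 0.0287, 9 of 12) and for the interaction (-1.30, SE 0.42, adjusted p = 0.0302, 6 of 12). Eif2s3y had 0.675, 0.292 and 0.677 in WT Pre-Tx against 0.314, 0.169 and 0.346 in TCF-1 cKO Pre-Tx. Its Post-Tx values were 0.396, 0.571 and 0.0852 in WT Post-Tx against 1.12, 2.15 and 0.54 in TCF-1 cKO Post-Tx. These are near the limit of detection, in all 4 groups, and Eif2s3y was removed by the filter on low counts before transplant and passed in none of the other comparisons. The Y-linked Kdm5d, measured better at 5.83 to 73.6 CPM, was lower in TCF-1 cKO before transplant and higher after it. Uty, also Y-linked, had 1.55 to 72.5 CPM, and its genotypes overlapped before transplant, with TCF-1 cKO higher after it. Ddx3y, Y-linked as well, had 0 to 1.00 CPM over all libraries. The part of the sex of the cells in these levels was not tested. Eif2a and Eif2d, which were grouped here but encode no subunit of eIF2, passed in no comparison.

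The exchange factor eIF2B reloads eIF2 with GTP, and it supplied 2 of the 4 genes that were lower in TCF-1 cKO after transplant. Eif2b5, the catalytic subunit, had 81.98, 115 and 64.3 in WT Pre-Tx against 119.8, 102 and 128 in TCF-1 cKO Pre-Tx. After transplant Eif2b5 had 113, 106 and 154 in WT Post-Tx against 78.7, 59.5 and 71.1 in TCF-1 cKO Post-Tx. The genotypes overlapped before transplant and were apart after it, with TCF-1 cKO lower. Eif2b5 fell in TCF-1 cKO Post-Tx (-0.82, SE 0.24, adjusted p = 0.046, 2 of 6), fell with transplant in TCF-1 cKO (-0.74, SE 0.26, adjusted p = 0.0418, 3 of 12) and had a negative interaction (-1.25, SE 0.36, adjusted p = 0.0195, 10 of 12). Eif2b2, a regulatory subunit, stood at 135, 140.3 and 148 in WT Pre-Tx against 109, 74.3 and 125 in TCF-1 cKO Pre-Tx. Post-Tx it stood at 142, 111 and 132 in WT Post-Tx against 79.6, 64.96 and 69.6 in TCF-1 cKO Post-Tx. TCF-1 cKO was lower than WT without overlap at both stages, and the difference passed after transplant (-0.84, SE 0.23, adjusted p = 0.0408, 2 of 6). Eif2b3 rose in WT with transplant, and Eif2b1 and Eif2b4 passed in no comparison.

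The eIF3 complex, the largest of the factors and a platform on the small subunit, split by subunit. Before transplant Eif3a, Eif3c and Eif3e rose, Eif3k fell and 10 of its 14 genes did not pass, and the fold changes ran from -0.77 to 2.27. In WT with transplant 6 rose (Eif3a, Eif3c, Eif3e, Eif3j2, Eif3l and Eif3m), whereas in TCF-1 cKO 4 fell (Eif3f, Eif3g, Eif3h and Eif3i). Eif3a, the largest subunit, read 76.5, 79.1 and 42.2 in WT Pre-Tx against 245, 174 and 195 in TCF-1 cKO Pre-Tx. After transplant Eif3a read 182, 201 and 261 in WT Post-Tx against 175, 141 and 227 in TCF-1 cKO Post-Tx. WT Pre-Tx lay below the other 3 groups. Eif3a passed before transplant (1.62, SE 0.27, adjusted p = 0.00858, 5 of 6), in WT (1.70, SE 0.28, adjusted p = 0.000276, 12 of 12) and for the interaction (-1.88, SE 0.38, adjusted p = 0.00434, 12 of 12).

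Eif3c, which forms the core of the complex with Eif3a, had 169, 179.7 and 99.5 in WT Pre-Tx against 307, 322 and 306 in TCF-1 cKO Pre-Tx. Post-Tx values of Eif3c were 461, 326 and 449 in WT Post-Tx against 328, 234 and 265 in TCF-1 cKO Post-Tx. The same group was low, and Eif3c was higher in TCF-1 cKO before transplant (1.04, SE 0.23, adjusted p = 0.0174, 2 of 6), rose in WT (1.46, SE 0.24, adjusted p = 0.000347, 12 of 12) and had a negative interaction (-1.64, SE 0.34, adjusted p = 0.00472, 12 of 12). Eif3e had 77.8, 114 and 44.5 in WT Pre-Tx against 207, 187 and 182 in TCF-1 cKO Pre-Tx. With 105, 195 and 229 in WT Post-Tx against 136, 99.6 and 176 in TCF-1 cKO Post-Tx, its WT groups overlapped between the stages. Eif3e was called higher before transplant (1.27, SE 0.29, adjusted p = 0.0204, 4 of 6), in WT with transplant (1.16, SE 0.33, adjusted p = 0.019, 9 of 12) and lower for the interaction (-1.64, SE 0.47, adjusted p = 0.0184, 10 of 12).

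Eif3l and Eif3m, further subunits of the PCI type, did not pass between genotypes at either stage. Eif3l had 176, 198 and 154 in WT Pre-Tx against 221, 272 and 265 in TCF-1 cKO Pre-Tx, later 273, 254 and 309 in WT Post-Tx against 233, 174 and 161 in TCF-1 cKO Post-Tx. Eif3m had 88.9, 152 and 39.03 in WT Pre-Tx against 212, 215 and 207 in TCF-1 cKO Pre-Tx, later 215, 209.8 and 285 in WT Post-Tx against 195, 133 and 206 in TCF-1 cKO Post-Tx. For both, TCF-1 cKO was above WT before transplant and below it after, with no overlap. Eif3l rose in WT (0.66, SE 0.21, adjusted p = 0.0331, 9 of 12) with a negative interaction (-1.08, SE 0.30, adjusted p = 0.0165, 12 of 12), and Eif3m did the same (1.34, SE 0.35, adjusted p = 0.0102, 12 of 12, and -1.59, SE 0.48, adjusted p = 0.0242, 10 of 12).

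Eif3f and Eif3k moved otherwise. Eif3f, a subunit of the MPN type, read 289.7, 306 and 295 in WT Pre-Tx against 225, 309 and 225 in TCF-1 cKO Pre-Tx. Its Post-Tx values, 207, 168 and 253 in WT Post-Tx against 118, 109 and 129 in TCF-1 cKO Post-Tx, were all below the Pre-Tx values of the same genotype. Eif3f was lower in TCF-1 cKO after transplant (-0.80, SE 0.23, adjusted p = 0.043, 1 of 6) and fell in TCF-1 cKO with transplant (-1.09, SE 0.22, adjusted p = 0.00181, 12 of 12). Eif3k, a small subunit of the complex, had 349.9, 369 and 387 in WT Pre-Tx against 178, 232 and 264 in TCF-1 cKO Pre-Tx. After transplant Eif3k had 311, 225 and 278 in WT Post-Tx against 192, 155 and 146 in TCF-1 cKO Post-Tx. TCF-1 cKO was below WT at both stages without overlap, and only the earlier difference passed (-0.77, SE 0.21, adjusted p = 0.0327, 0 of 6). Eif3j1 and Eif3j2 share much of their sequence, so counts of either are uncertain, and Eif3j2 read 0 in WT Pre-Tx replicate 3.

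eIF4A unwinds the leader of the mRNA, and its genes Eif4a1 and Eif4a2 changed unequally. Eif4a1, the main helicase of eIF4F, had 124, 132 and 115 in WT Pre-Tx against 164, 197 and 232 in TCF-1 cKO Pre-Tx. Post-Tx Eif4a1 was at 308, 194 and 315 in WT Post-Tx against 259, 217 and 218 in TCF-1 cKO Post-Tx. It rose in WT with transplant (1.13, SE 0.23, adjusted p = 0.00179, 12 of 12) and had a negative interaction (-0.91, SE 0.32, adjusted p = 0.0429, 5 of 12). Eif4a2, its paralog, had 77.3, 85.2 and 57.4 in WT Pre-Tx against 179, 146 and 131 in TCF-1 cKO Pre-Tx. After transplant Eif4a2 was at 60.5, 49.6 and 88.6 in WT Post-Tx against 64.5, 45.8 and 69.05 in TCF-1 cKO Post-Tx. The TCF-1 cKO libraries lay above the WT libraries before transplant for both genes, and the genotypes overlapped after it. Eif4a2 was higher in TCF-1 cKO before transplant (1.03, SE 0.25, adjusted p = 0.0221, 2 of 6), fell in TCF-1 cKO with transplant (-1.35, SE 0.27, adjusted p = 0.00221, 12 of 12) and had a negative interaction (-1.20, SE 0.38, adjusted p = 0.0291, 9 of 12).

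Within a library, the TPM of Eif4a2 was 0.432 to 0.576 times that of Eif4a1 in WT Pre-Tx and 0.512 to 0.976 times in TCF-1 cKO Pre-Tx. After transplant the ratio was 0.180 to 0.264 in WT and 0.203 to 0.332 in TCF-1 cKO. Every Post-Tx library was below every Pre-Tx library of the same genotype, by -1.10 (SE 0.21) on the log2 scale in WT and by -1.50 (SE 0.34) in TCF-1 cKO. Each had an exact two-sided permutation p of 0.1, which is the smallest that 3 against 3 allows, and an adjusted p of 0.4 over the 24 such tests made on ratios of paralogs. Eif4b, which stimulates eIF4A, had 180.3, 226 and 139.9 in WT Pre-Tx against 293, 289 and 231 in TCF-1 cKO Pre-Tx. After transplant Eif4b had 199.6, 190.1 and 230.2 in WT Post-Tx against 159, 93.96 and 135 in TCF-1 cKO Post-Tx. TCF-1 cKO was the higher genotype before transplant and the lower after it, without overlap. Eif4b fell with transplant in TCF-1 cKO (-1.07, SE 0.24, adjusted p = 0.00478, 12 of 12) and its interaction was negative (-1.25, SE 0.34, adjusted p = 0.0156, 12 of 12). Eif4a3 of the exon junction complex and Eif4h, a cofactor like Eif4b, passed in no comparison.

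Of the 7 cap-binding factors 5 rose in WT with transplant, and the other 2, Eif4e3 and Eif4e1b, did not pass, with log2 fold changes of the 7 from -1.23 to 1.39. Eif4e, the cap-binding subunit of eIF4F, had 52.3, 79.5 and 42.3 in WT Pre-Tx against 125, 91.2 and 116 in TCF-1 cKO Pre-Tx. Post-Tx values of Eif4e were 117, 156 and 172 in WT Post-Tx against 128, 107 and 131 in TCF-1 cKO Post-Tx. WT Pre-Tx was below the other groups, and the genotypes overlapped after transplant. Eif4e was higher in TCF-1 cKO before transplant (0.90, SE 0.27, adjusted p = 0.0483, 1 of 6), rose in WT (1.35, SE 0.26, adjusted p = 0.00137, 12 of 12) and had a negative interaction (-1.21, SE 0.37, adjusted p = 0.0243, 9 of 12). Eif4e2, a cap-binding relative that represses translation, had 74.3, 79.5 and 47.96 in WT Pre-Tx against 97.7, 106 and 112 in TCF-1 cKO Pre-Tx. With 143, 126 and 191 in WT Post-Tx against 118, 111 and 109 in TCF-1 cKO Post-Tx, it was higher in TCF-1 cKO before transplant and lower after it, without overlap. Eif4e2 passed in WT with transplant (1.19, SE 0.24, adjusted p = 0.00204, 12 of 12) and for the interaction (-1.09, SE 0.34, adjusted p = 0.0274, 9 of 12).

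Eif4g1, the main scaffold, read 160.3, 163 and 85.6 in WT Pre-Tx against 210.0, 228 and 241 in TCF-1 cKO Pre-Tx. After transplant Eif4g1 read 244, 196 and 261 in WT Post-Tx against 197, 150.4 and 145 in TCF-1 cKO Post-Tx. It passed in WT with transplant (0.78, SE 0.25, adjusted p = 0.0343, 9 of 12) and for the interaction (-1.24, SE 0.35, adjusted p = 0.0185, 11 of 12). Eif4g2, a scaffold that lacks the site for eIF4E, had 245, 294 and 172 in WT Pre-Tx against 672, 689.8 and 619.8 in TCF-1 cKO Pre-Tx. Its Post-Tx values were 486, 602 and 779.8 in WT Post-Tx against 521, 354 and 518 in TCF-1 cKO Post-Tx. Per length it was the most abundant of the 3 eIF4G genes, with a mean of 136 TPM beside 42.1 for Eif4g1 and 16.5 for Eif4g3. TCF-1 cKO lay above WT before transplant, and the genotypes overlapped after it. Eif4g2 was higher in TCF-1 cKO before transplant (1.46, SE 0.22, adjusted p = 0.00589, 5 of 6), rose in WT (1.39, SE 0.24, adjusted p = 0.000557, 12 of 12) and had a negative interaction (-1.90, SE 0.34, adjusted p = 0.00268, 12 of 12).

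Eif4g3, a paralog of Eif4g1, had 45.4, 60.1 and 46.3 in WT Pre-Tx against 90.3, 88.8 and 90.4 in TCF-1 cKO Pre-Tx. After transplant Eif4g3 had 84.1, 70.99 and 91.6 in WT Post-Tx against 49.6, 61.02 and 45.9 in TCF-1 cKO Post-Tx. It moved up in WT (0.70, SE 0.23, adjusted p = 0.0396, 6 of 12) and down in TCF-1 cKO (-0.78, SE 0.23, adjusted p = 0.022, 6 of 12), with a negative interaction (-1.48, SE 0.33, adjusted p = 0.00638, 12 of 12). The TPM ratio of Eif4e3 to Eif4e was 0.0972 to 0.231 in WT Pre-Tx and 0.0307 to 0.0837 in TCF-1 cKO Pre-Tx, without overlap (log2 difference -1.50, SE 0.55, exact permutation p = 0.1, adjusted p = 0.4). By estimated counts this ratio overlapped between the genotypes. Eif4e3 and the oocyte-type Eif4e1b passed in no comparison.

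The inhibitors that bind eIF4E compete with eIF4G for the same surface, and mTORC1 releases them by phosphorylation. Eif4ebp1 had 60.9, 52.3 and 64.3 in WT Pre-Tx against 23.8, 33.04 and 52.7 in TCF-1 cKO Pre-Tx. After transplant Eif4ebp1 had 19.3, 18.5 and 23.1 in WT Post-Tx against 32.1, 25.7 and 24.9 in TCF-1 cKO Post-Tx. It fell with transplant in WT (-1.54, SE 0.32, adjusted p = 0.00197, 12 of 12), where the ranges did not overlap, and in TCF-1 cKO the stages overlapped. After transplant TCF-1 cKO was above WT without overlap, a difference that did not pass (0.45, SE 0.30, adjusted p = 0.298). Eif4ebp2 had 70.03, 69.1 and 53.5 in WT Pre-Tx against 68.5, 96.9 and 87.4 in TCF-1 cKO Pre-Tx. Its Post-Tx values were 74.6, 67.1 and 102 in WT Post-Tx against 57.3, 33.7 and 59.3 in TCF-1 cKO Post-Tx. After transplant TCF-1 cKO was below WT without overlap, which did not pass by itself (-0.68, SE 0.27, adjusted p = 0.107), and the interaction did (-1.09, SE 0.39, adjusted p = 0.0442, 6 of 12). Eif4enif1, which carries eIF4E to the nucleus and to P-bodies, had 27.1, 18.3 and 12.4 in WT Pre-Tx against 65.3, 38.9 and 47.2 in TCF-1 cKO Pre-Tx. After transplant Eif4enif1 had 52.02, 42.2 and 43.6 in WT Post-Tx against 24.96, 39.5 and 35.1 in TCF-1 cKO Post-Tx. It was higher in TCF-1 cKO before transplant (1.38, SE 0.36, adjusted p = 0.0319, 1 of 6), rose in WT (1.25, SE 0.33, adjusted p = 0.012, 12 of 12) and had a negative interaction (-1.86, SE 0.47, adjusted p = 0.0111, 12 of 12).

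The RNA ratio of the 2 main inhibitor genes varied between the groups, with no test of it passed after adjustment. TPM of Eif4ebp1 include Eif4ebp1-202, which is annotated as a processed transcript and not as protein coding. It made up 51.0% to 59.9% of them in WT Pre-Tx and 51.8% to 61.5% in TCF-1 cKO Pre-Tx. After transplant its share was 35.0% to 63.7% in WT and 4.31% to 47.0% in TCF-1 cKO. The TPM of Eif4ebp2 over that of Eif4ebp1 was 0.330, 0.464 and 0.215 in WT Pre-Tx against 0.590, 0.708 and 0.316 in TCF-1 cKO Pre-Tx. After transplant it was 1.45, 1.69 and 1.18 in WT Post-Tx against 0.470, 0.484 and 0.667 in TCF-1 cKO Post-Tx. In TPM, WT Post-Tx was the only group in which Eif4ebp2 exceeded Eif4ebp1 in every library. The ratio was higher in WT after transplant than before (log2 difference 2.15, SE 0.36) and lower in TCF-1 cKO Post-Tx than in WT Post-Tx (-1.42, SE 0.22), both without overlap and both with an exact permutation p of 0.1 and an adjusted p of 0.4. By estimated counts instead of TPM the genotypes were also apart before transplant, with TCF-1 cKO higher by 1.15 (SE 0.33). Estimated counts, which are not scaled to length, gave a ratio of 0.832 to 1.32 in WT Pre-Tx and 1.66 to 2.93 in TCF-1 cKO Pre-Tx. After transplant they gave 3.62 to 4.42 in WT and 1.31 to 2.38 in TCF-1 cKO.

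Eif4ebp2 also differed in the makeup of its transcripts. Of the 409 transcripts of the 64 genes in the data, 57 from 30 genes had a mean of at least 5 TPM and a share of their gene's TPM that reached 15% in some library and was at most 85% in another. Their shares did not overlap between the genotypes for 5 before transplant and 7 after it, where this held for 18.9% and 22.1% of 9859 such transcripts of all genes. Both transcripts of Eif4ebp2 did so the same way at both stages, as did 0.791% of all such transcripts, and they were singled out after their values were seen, with no test. Eif4ebp2-201 (chr10:61428491-61452661, GRCm38, minus strand) ends in a 3′ untranslated region of 5306 bases, and Eif4ebp2-202 (chr10:61432820-61452658) in one of 977 bases, while both have 363 coding bases with the stop codon. The longer transcript made up 52.9%, 44.3% and 64.8% of the gene's TPM in WT Pre-Tx and 87.6%, 76.7% and 88.4% in TCF-1 cKO Pre-Tx. In WT Post-Tx its share was 42.8%, 37.3% and 56.9%, and in TCF-1 cKO Post-Tx 76.3%, 78.8% and 68.6%. The TPM of the shorter transcript were 7.65, 9.80 and 3.53 in WT Pre-Tx against 1.62, 4.52 and 1.65 in TCF-1 cKO Pre-Tx, then 14.5, 17.7 and 11.4 in WT Post-Tx against 3.70, 2.11 and 6.05 in TCF-1 cKO Post-Tx. The estimates rest on reads that kallisto divided between 2 transcripts with the same coding sequence.

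**Figure D4:**
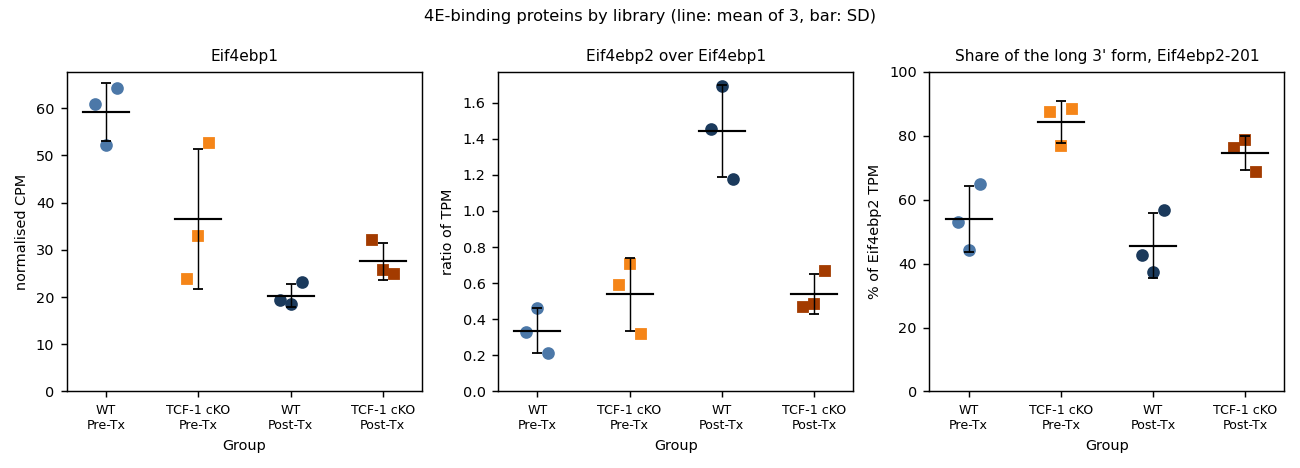
Levels of the genes of the 4E-binding proteins by library in the 4 groups, with their ratio and the share of the longer Eif4ebp2 transcript, 1 point per library, a line at the mean of 3 libraries and a bar for the SD. The ratio of Eif4ebp2 to Eif4ebp1, in TPM summed over the transcripts of each gene, is above 1 in the WT Post-Tx libraries alone. The share of Eif4ebp2-201 is 37.3% to 64.8% in WT libraries and 68.6% to 88.4% in TCF-1 cKO libraries.

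eIF5A, which carries the amino acid hypusine and helps ribosomes past stalling sequences, and eIF6, which keeps the large subunit from joining early, passed in no comparison. Eif5a had 1129, 1311 and 1025 in WT Pre-Tx against 775, 909.6 and 961 in TCF-1 cKO Pre-Tx. After transplant Eif5a had 971, 977 and 1311 in WT Post-Tx against 988, 755 and 769.8 in TCF-1 cKO Post-Tx. Eif6 had 259, 350.2 and 386 in WT Pre-Tx against 179, 216 and 256 in TCF-1 cKO Pre-Tx, and then 351, 229.9 and 298 in WT Post-Tx against 242, 194 and 144 in TCF-1 cKO Post-Tx. For both genes TCF-1 cKO was below WT before transplant without overlap, by -0.43, SE 0.18, adjusted p = 0.113 for Eif5a and -0.68, SE 0.23, adjusted p = 0.0701 for Eif6, and the genotypes overlapped after it.

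The calls of the elongation factors with transplant were all downward, 2 of 7 genes in WT and 4 of 7 in TCF-1 cKO. Eef1a1, which delivers aminoacyl-tRNA, had 4314, 5449 and 3331 in WT Pre-Tx against 7049, 8296 and 7913 in TCF-1 cKO Pre-Tx. After transplant Eef1a1 had 6083, 5195 and 6845 in WT Post-Tx against 4009, 2906 and 3819 in TCF-1 cKO Post-Tx. Every TCF-1 cKO library was above every WT library before transplant and below every WT library after it. Eef1a1 was higher in TCF-1 cKO before transplant (0.80, SE 0.19, adjusted p = 0.0209, 2 of 6), fell with transplant in TCF-1 cKO (-1.12, SE 0.20, adjusted p = 0.000903, 12 of 12) and had a negative interaction (-1.58, SE 0.29, adjusted p = 0.00272, 12 of 12), and its later genotype difference did not pass (-0.74, SE 0.23, adjusted p = 0.0584).

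Eef2, which translocates the ribosome, ran the other way before transplant and was the one gene of the 64 that passed the test as lower in TCF-1 cKO at both stages. It had 3613, 4731 and 4331 in WT Pre-Tx against 2129, 2845 and 3018 in TCF-1 cKO Pre-Tx. After transplant Eef2 had 2935, 2205 and 2659 in WT Post-Tx against 1698, 1304 and 1292 in TCF-1 cKO Post-Tx. No groups overlapped within a stage or within a genotype. Eef2 was lower in TCF-1 cKO before transplant (-0.72, SE 0.19, adjusted p = 0.0327, 0 of 6) and after it (-0.86, SE 0.23, adjusted p = 0.0394, 2 of 6), and it fell with transplant in WT (-0.70, SE 0.20, adjusted p = 0.0184, 6 of 12) and in TCF-1 cKO (-0.90, SE 0.20, adjusted p = 0.00424, 12 of 12). The call before transplant thus held in none of the fits that left out 1 library. Eef1g, a subunit of the exchange complex of eEF1A, had 1135, 1261 and 1242 in WT Pre-Tx against 819, 1052 and 1127 in TCF-1 cKO Pre-Tx. Its Post-Tx values were 780.2, 517 and 718 in WT Post-Tx against 439, 355 and 427 in TCF-1 cKO Post-Tx. Eef1g fell in WT (-0.85, SE 0.20, adjusted p = 0.00643, 11 of 12) and in TCF-1 cKO (-1.30, SE 0.21, adjusted p = 0.000269, 12 of 12). Eef1b2, the exchange subunit itself, fell in TCF-1 cKO (-0.81, SE 0.21, adjusted p = 0.0106).

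Among the enzymes that modify elongation factors, Eef2k showed the largest fall of a called gene in either genotype. It encodes the kinase that inhibits eEF2, and it had 39.98, 41.8 and 40.9 in WT Pre-Tx against 53.8, 48.6 and 48.4 in TCF-1 cKO Pre-Tx. After transplant Eef2k had 6.55, 16.2 and 6.96 in WT Post-Tx against 8.21, 14.4 and 10.8 in TCF-1 cKO Post-Tx. All Post-Tx libraries lay below all Pre-Tx libraries of their genotype, in WT (-2.05, SE 0.38, adjusted p = 0.000816, 12 of 12) and in TCF-1 cKO (-2.17, SE 0.38, adjusted p = 0.00058, 12 of 12). Eef1g, Eef2 and Eef2k were the 3 genes that fell in both genotypes. The summed B cell markers fell over the same comparisons, by the values given above, and their part in these falls was not tested.

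Eef1akmt1, a lysine methyltransferase of eEF1A, had 58.7, 53.8 and 57.1 in WT Pre-Tx against 30.1, 27.9 and 33.01 in TCF-1 cKO Pre-Tx. Post-Tx it had 52.4, 37.9 and 50.2 in WT Post-Tx against 38.3, 26.2 and 41.8 in TCF-1 cKO Post-Tx. It was lower in TCF-1 cKO before transplant (-0.95, SE 0.27, adjusted p = 0.0388, 0 of 6). Eef1akmt3, another methyltransferase of eEF1A, had 4.42, 1.75 and 6.46 in WT Pre-Tx against 2.41, 2.20 and 0.939 in TCF-1 cKO Pre-Tx. Post-Tx values of Eef1akmt3 were 2.42, 4.47 and 0.767 in WT Post-Tx against 5.18, 14.1 and 7.81 in TCF-1 cKO Post-Tx. The TCF-1 cKO Post-Tx libraries were above all other groups' values except those of WT Pre-Tx, with which they overlapped. Eef1akmt3 rose with transplant in TCF-1 cKO (2.29, SE 0.75, adjusted p = 0.0341, 7 of 12) and had the one positive interaction that passed the test (3.01, SE 1.04, adjusted p = 0.0392, 3 of 12), both at low levels.

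The fold changes of the members varied with the share of G and C in their transcripts, which is given here as a description. The GC content of the 64 genes, over their transcripts, ran from 37.2% to 60.6%. Across the 60 genes tested before transplant, Spearman's rho between GC content and log2 fold change was -0.73, beside -0.17 across all 17006 genes with a value. It was -0.59 for the transplant change in WT (all genes -0.06), -0.45 after transplant (-0.28), -0.16 for the change in TCF-1 cKO (-0.17) and 0.54 for the interaction (-0.03). These describe genes in the same libraries, which are not independent replicates. In the third of the members with the lowest GC content, 37.2% to 47.2%, 10 of 20 genes rose before transplant and 14 of 21 in WT with transplant. In the third with the highest, 53.8% to 60.6%, 2 rose and 2 fell in WT with transplant, and 2 fell before transplant. Shares of all genes called at the same GC content are not given here, so these counts alone do not set the members apart. The members that rose before transplant had a median GC content of 43.5%, and those that fell 54.1%. Over all genes tested the medians were 45.7% for those that rose, 47.8% for those that fell and 50.3% for those not passed. In WT with transplant, all genes that rose had a median of 47.2%, and those not passed 49.8%. When the trend of each library with GC content was taken out, rho before transplant was -0.58 across members and -0.05 across all genes. With the same correction the members' rho was -0.54 in WT with transplant and 0.60 for the interaction, and it turned from -0.45 to 0.40 after transplant and from -0.16 to 0.20 for the change in TCF-1 cKO. The interaction then passed as negative for 46 members in place of 25. With this correction the median interaction of all genes also moved, from 0.37 to -0.41. The members' median minus that of all genes was -1.07 in place of -1.14, so the members did not move further from all genes.

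**Figure D5:**
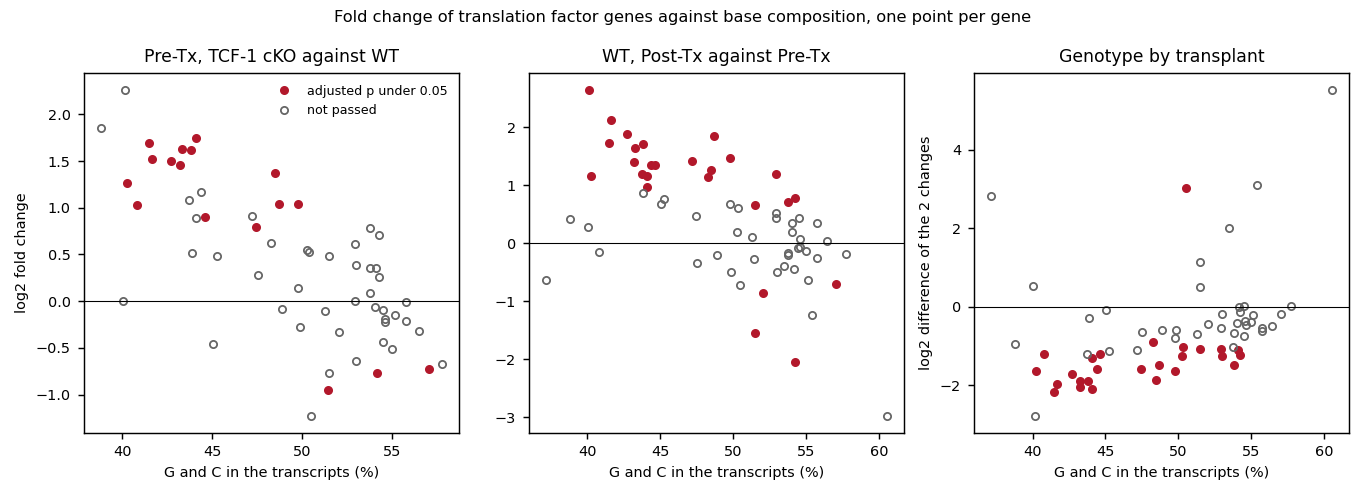
Log2 fold change of each member against the GC content of its transcripts in percent, before transplant, in WT with transplant and for the interaction, 1 point per gene, with filled red points for adjusted p under 0.05. Points fall from left to right in the first 2 panels (Spearman's rho -0.73 and -0.59) and rise in the last (0.54).

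Promoter sequence from RefSeq (GRCm38.p6, 250 bases before to 50 after the start) was at hand for 48 of the 64 genes. The letters CACGTG, the E-box that Myc and related factors bind, read the same on both strands. They occurred in 13 of the 48 promoters (27.1%), and in 8.09% of the promoters of 27025 genes. The windows below show 1 E-box each, in capitals, for the members given with values per library above. Each has 12 bases on either side, on the gene's own strand. Eif4e, Eif4g1, Eif5a and Eif5a2 hold more than 1 E-box. The other holders, Eef1akmt4, Eif1b, Eif4h and Eif5a2, are not shown.
Eef2, chr10:81176576-81176605, plus strand: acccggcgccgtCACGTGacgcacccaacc
Eef2k, chr7:120842788-120842817, plus strand: cccggggacggcCACGTGagcccgggcgtg
Eif3a, chr19:60790654-60790683, minus strand: ccgcgagggaatCACGTGgttccttccttt
Eif3f, chr7:108934335-108934364, plus strand: caagatatgattCACGTGgtataaatttag
Eif3k, chr7:28981915-28981944, minus strand: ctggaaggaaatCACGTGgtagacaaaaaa
Eif4a1, chr11:69672595-69672624, minus strand: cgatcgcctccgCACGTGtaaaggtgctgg
Eif4e, chr3:138527192-138527221, plus strand: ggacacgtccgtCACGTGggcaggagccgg
Eif4g1, chr16:20672661-20672690, plus strand: ggcagtgggtgtCACGTGatggggcggagc
Eif5a, chr11:69921443-69921472, minus strand: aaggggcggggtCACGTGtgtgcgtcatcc
Members with the E-box did not share one direction. Of the 13, 2 rose and 2 fell before transplant, and 4 rose and 2 fell in WT with transplant. Of the 35 without it, 9 of 33 tested rose before transplant and 13 of 35 rose in WT. The median log2 fold changes with transplant in WT were -0.09 with the E-box and 0.51 without.

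TCF-1 binds DNA at a core written TCAAAG. These letters, or their complement as in the windows shown, occurred in 4 of the 48 promoters (8.33%) and in 18.2% of all. Capitals mark them for the members given with values per library above that hold them.
Eif3l, chr15:79075048-79075077, plus strand: cacaataatgtcCTTTGAaaagcccgtttt
Eif4enif1, chr11:3202376-3202405, plus strand: cacagcagccgcCTTTGAgcccgggcgccg
The other holders were Eef1akmt2 and Eif3g. The letters TGACGTCA, bound by CREB and ATF factors, were found in Eef2 alone (2.08%, against 2.03% of all), and those of the ATF4 composite site TGATGCAA in 0 of 48, against 1.03%. CCAAT, searched on both strands like all of these, stood in 31.2% of member promoters and 41.1% of all, and the TATA box TATAAA in 10.4% and 15.7%. A tract of pyrimidines at the very start of the transcript, the TOP motif of many ribosomal protein and elongation factor mRNAs, was found at the RefSeq start in Eif2s3x and Eif3f (4.17%, against 3.01% of all). A match describes the letters in this window, and no match says nothing of binding.

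Other translation genes were read from lists in the same fits. Their counts stand beside the shares of all genes tested, which were 8.52% higher and 5.65% lower before transplant, 11.6% and 10.4% in WT with transplant, 14.2% and 12.5% in TCF-1 cKO, and 17.1% positive and 11.5% negative for the interaction. Of 14 genes of the eIF2 kinases and the integrated stress response, which shuts initiation down through eIF2, Eif2ak3 rose before transplant and Nupr1 after it. In WT with transplant Asns rose and Nupr1 fell, and in TCF-1 cKO 6 fell (42.9%), among them Eif2ak1, Eif2ak3, Eif2ak4, Atf4 and Ddit3. Its interaction was negative for 4 (28.6%) and positive for Nupr1. Eif2ak3, the kinase PERK, had 12.4, 18.2 and 16.99 in WT Pre-Tx against 45.9, 42.99 and 45.5 in TCF-1 cKO Pre-Tx. Its values after transplant were 18.3, 20.8 and 18.7 in WT Post-Tx against 14.8, 15.8 and 16.9 in TCF-1 cKO Post-Tx. The 3 TCF-1 cKO Pre-Tx libraries stood apart above all others. Eif2ak3 was higher there before transplant (1.45, SE 0.33, adjusted p = 0.0199, 3 of 6) and fell with transplant (-1.50, SE 0.31, adjusted p = 0.00224, 12 of 12). Eif2ak1, the heme-regulated kinase, fell in TCF-1 cKO (-0.90, SE 0.26, adjusted p = 0.0201, 9 of 12), as did Eif2ak4, the kinase GCN2 (-1.46, SE 0.45, adjusted p = 0.0256, 8 of 12), the transcription factor Atf4 (-1.08, SE 0.24, adjusted p = 0.00349, 11 of 12) and Ddit3 (-1.68, SE 0.36, adjusted p = 0.00338, 12 of 12). Eif2ak2, the kinase PKR, and Trib3 passed in no comparison.

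Of 15 genes of mTORC1 and the control of cap binding, 2 rose before transplant (13.3%), 4 rose (26.7%) and 1 fell (6.67%) in WT with transplant, 7 fell in TCF-1 cKO (46.7%), and 6 interactions passed as negative (40%). Mtor, the kinase itself, passed for the interaction (-1.55, SE 0.48, adjusted p = 0.0255, 10 of 12), and the S6 kinase gene Rps6kb1 rose in WT (1.35, SE 0.38, adjusted p = 0.0173, 10 of 12). Among 10 partners of initiation around the poly(A) tail, 4 rose before transplant (40%), 6 in WT with transplant (60%), 1 fell in TCF-1 cKO (10%) and 4 interactions passed as negative (40%). Pabpc1, the poly(A)-binding protein that holds eIF4G, had 283, 321 and 247 in WT Pre-Tx against 452, 464 and 480.4 in TCF-1 cKO Pre-Tx. After transplant Pabpc1 had 614, 534 and 635 in WT Post-Tx against 405, 315 and 352 in TCF-1 cKO Post-Tx. It was higher in TCF-1 cKO before transplant (0.67, SE 0.19, adjusted p = 0.0366, 1 of 6), rose in WT (1.07, SE 0.19, adjusted p = 0.000719, 12 of 12) and had a negative interaction (-1.45, SE 0.27, adjusted p = 0.00311, 12 of 12). Of 22 aminoacyl-tRNA synthetases and their scaffolds, 7 rose before transplant (31.8%), 12 rose (54.5%) and 1 fell (4.55%) in WT, 2 fell in TCF-1 cKO (9.09%, near the share of all genes) and 12 interactions passed as negative (54.5%). Of 7 termination, hypusine and selenocysteine factors, Dohh fell before transplant (14.3%), Etf1 and Gspt1 rose in WT (28.6%), and 3 interactions passed as negative (42.9%). Between genotypes after transplant, 0 of the 54 genes of these 4 lists passed with edgeR, and at an unadjusted p under 0.05 there were 6, 1, 8 and 2 lower in the order given, and 0 higher. DESeq2 called 4, 1, 3 and 0 of them lower, and limma voom 2, 1, 2 and 0. The counts at an unadjusted p and with these tools have no share of all genes beside them, so they do not set the lists apart.

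Some counts may be shared with processed pseudogenes, which are not members. Eif5al3-ps (chr5:90132229-90132675, GRCm38), a copy of the Eif5a sequence, had 1.12, 0.539 and 3.56 TPM in WT Pre-Tx and 15.1, 39.8 and 26.4 in TCF-1 cKO Pre-Tx. After transplant it had 0.615, 0.219 and 0.135 TPM in WT and 12.1, 25.6 and 10.95 in TCF-1 cKO. TCF-1 cKO was above WT at both stages without overlap (log2 fold change 3.47, SE 1.00, adjusted p = 0.0413 before transplant, and 5.07, SE 1.10, adjusted p = 0.0229 after it). The earlier difference did not pass in 5 of the 6 fits that left out 1 library (adjusted p 0.0651 to 0.124), and passed without WT Pre-Tx replicate 3. Nor did it pass with upper-quartile normalization (adjusted p = 0.0570) or with the replicate number as a block (0.0534). The later difference did not pass without TCF-1 cKO replicate 2 (adjusted p = 0.158) or WT replicate 1 (0.0636). Eif3s6-ps3 passed as positive for the interaction (7.96, SE 2.51, adjusted p = 0.0279), at 0 to 1.15 TPM with 4 of the 12 libraries at 0, and a fitted value of that kind depends on the count added to zeros. Eif4a-ps4, at 20.7 to 123 TPM, and Eif1-ps3 passed in no comparison. These pseudogenes were named after their values were seen.

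Not every member changed. In all, 21 of the 64 passed in none of the 5 comparisons, among them Eef1d, Eif3b, Eif3d, Eif4a3, Eif4h, Eif5a and Eif6. The filter on low counts removed Eef1a2, Eif2s3y, Eif4e1b and Eif4ebp3 from the comparison before transplant and Eif4ebp3 from that after it, and all 64 were tested in the other comparisons.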

How the data were processed

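RNA of 12 libraries was measured, prepared with the SMARTseq HT kit from 1 ng of RNA per sample and read in pairs on a NovaSeq instrument. The estimated count of each transcript is what kallisto 0.46.2 returned, as deposited by the authors, with no scaling. TPM were derived by the same tool from these counts and effective lengths, per the file headers and the authors' methods. The submitters' processing notes name mm9, and no source used here gives the transcript release. The later TPM normalization and voom and limma tests of the study are not part of these values.

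Of 117497 transcripts per library, 116428 (99.09%) matched GENCODE M21 (GRCm38) by identifier and were summed to genes, with counts rounded to whole numbers. With R 4.3.3 and edgeR 4.0.16, genes passing filterByExpr were fitted by the quasi-likelihood method after TMM scaling. The genotypes were compared within the 6 libraries of a stage, and the transplant changes and the interaction within all 12, with Benjamini-Hochberg adjustment over all genes tested and a call at adjusted p under 0.05. CPM shown per library use TMM factors over all 12 libraries. Alternatives used limma 3.58.1 and DESeq2 1.42.0. Exact permutation tests used scipy 1.17.1, and tables pandas 2.3.3. The script was tested on simulated data. Replicate numbers were not treated as pairs, since residuals of same-numbered libraries correlated between -0.272 and 0.248. Replicates correlated at 0.869 to 0.955 (log2 CPM), so none was a copy.

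The members and lists were chosen with earlier results of these data known. Genes named with values were 16 chosen by role (Eif2s1, Eif2s3x, Eif2s3y, Eif2b5, Eif3a, Eif4a1, Eif4a2, Eif4e, Eif4ebp1, Eif4ebp2, Eif4g1, Eif5a, Eif6, Eef1a1, Eef2 and Eef2k), the 5 higher and 5 lower calls with the smallest adjusted p in each comparison, the 5 members of highest TPM, those with a called interaction, and Eif2ak1 to Eif2ak4, Atf4, Ddit3, Trib3, Pabpc1, Mtor and Rps6kb1. Other members were named as counted. The GC corrections were added after seeing the data. Protein sequences were not used here.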

Additional observations from a re-analysis of the deposited data

Results flagged for a closer look

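For 26 of the 64 genes the change with transplant differed between the genotypes, by the interaction term of the edgeR fit of all 12 libraries (adjusted p under 0.05). In 25 the change in TCF-1 cKO was the lower of both. On the log2 scale the difference was -2.17 for Eif1a, -2.08 for Eif5 and -2.04 for Eif5b among the scanning factors, with -1.48 for Eif1ax and -1.03 for Eif1ad. The eIF2 genes gave -1.96 for Eif2s1, -1.72 for Eif2s2 and -1.30 for Eif2s3x, and Eif2b5 of eIF2B gave -1.25. In the eIF3 complex it was -1.88 for Eif3a, -1.64 for Eif3e, -1.64 for Eif3c, -1.59 for Eif3m and -1.08 for Eif3l. Around the cap it was -1.90 for Eif4g2, -1.48 for Eif4g3, -1.24 for Eif4g1, -1.21 for Eif4e, -1.09 for Eif4e2, -1.86 for Eif4enif1 and -1.09 for Eif4ebp2. The helicase group gave -1.25 for Eif4b, -1.20 for Eif4a2 and -0.91 for Eif4a1, and the elongation factor Eef1a1 gave -1.58. Eef1akmt3 had the one positive difference of the 26, of 3.01, at normalised CPM between 0.767 and 14.1. All 4 groups enter each of these values, and WT Pre-Tx replicate 3, which was the lowest library for 23 of the 64 genes, is among them. Without that library 25 members had a negative interaction past the test, the same count as with all 12 libraries. Over all fits leaving out 1 library the count ran from 13, without TCF-1 cKO Post-Tx replicate 2, to 30.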

How the results depend on the processing

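Counts of genes are given as higher and lower unless one is named, and the cause of a change was not tested. No share of all genes stands beside these counts. With upper-quartile normalization they were 8 and 9 before transplant, 0 lower after it, 9 lower in WT with transplant, 4 and 8 in TCF-1 cKO, and 4 and 8 for the interaction. At a mean of at least 10 CPM they were 9 lower before transplant, 0 lower after it, 11 lower in WT, 3 and 10 in TCF-1 cKO, and 2 and 8 for the interaction. Without a filter on low counts, 1 was lower before transplant, 10 after it and 2 in WT. DESeq2 size factors gave 7 lower after transplant. The DESeq2 Wald test gave 1 and 17 after transplant and 2 higher for the interaction, and limma voom 1 and 15, and 2. The limma trend fit on log2(TPM + 1) gave 0 lower before and after transplant, and 10 and 6 in TCF-1 cKO. The fit of all 12 libraries gave 0 lower after transplant. GC correction gave 0 lower before transplant and 1 after it, 2 lower in WT, 0 and 30 in TCF-1 cKO, and 0 and 46 for the interaction, and GC and length correction gave 0, 0, 2, 26 and 46 lower in the same order. These 2 corrections also moved the median interaction of all genes from 0.37 to -0.41 and -0.39.

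Leaving out 1 library gave 0 to 13 higher and 0 to 1 lower before transplant, 0 to 1 and 0 to 11 after it, 14 to 30 and 2 to 4 in WT, 0 to 2 and 9 to 18 in TCF-1 cKO, and 0 to 2 and 13 to 30 for the interaction. With the replicate number as a block, which is no pairing here, counts were 13 and 3 before transplant, 1 and 20 after it, 20 and 4 in WT, 0 and 13 in TCF-1 cKO, and 1 and 22 for the interaction. Of 2034 single-gene results under an alternative, 1643 kept their side of the threshold, 381 no longer passed, 10 newly passed and 0 changed sign.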
